A study of Sus scrofa with 15 samples.

Results

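Piglets fed cow's milk formula with added genistein (M + G) were compared with piglets fed sow milk (Sow) by the RNA of their testes at postnatal day 21. The comparison used the 3 libraries of each of these 2 diets, which are 6 of the 15 libraries of the study, and took every gene that passed a filter on low read counts: 15328 of the 30476 genes in the table. All piglets, the Sow group included, suckled for the first 2 days after birth. The diets then ran until day 21, with sow milk in the Sow group and, in the M + G group, cow's milk formula carrying 84 mg/L genistein. That concentration is given for the diet in the study's methods, whereas the labels give it for serum. The other diets were the same cow's milk formula without an addition (Milk), soy formula (Soy), and the cow's milk formula with 17-beta-estradiol (M + E2). M + G therefore differed from Sow in the milk base and in genistein at the same time, and in this comparison the effects of formula and of genistein cannot be told apart. The labels number the libraries within a diet but name no piglet, so the p-values measure the spread between these libraries. In the table of reads, 1 of the 3 Sow libraries carries no number and is called Sow unnumbered here.

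Genistein is an isoflavone of soybeans that binds estrogen receptors, more strongly ESR2 than ESR1, and in the body it circulates mostly as glucuronide and sulfate conjugates. The neonatal pig testis is rich in Leydig cells, which make androgens and, in this species, large amounts of estrogens. Its cords hold Sertoli cells and gonocytes, and peritubular myoid cells, vessels and macrophages surround them. The tissue label was borne out by its markers. The Leydig cell gene STAR, which moves cholesterol into mitochondria, was at 3888, 3801 and 3089 CPM in Sow and 3672, 3573 and 3196 in M + G. The Sertoli cell gene AMH, the hormone that removes the Müllerian ducts, was at 696, 287 and 410.2 CPM in Sow and 698, 553 and 856 in M + G. CPM are reads per gene scaled to a common library size, ± marks a standard error, and 3 values always stand in the order Sow unnumbered, Sow 2 and Sow 3, or M + G 1, 2 and 3. In whole testis, fewer cells of a type and less RNA per cell cannot be told apart.

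Each library had 6097552 to 9488579 reads on genes, with 7937385 to 9001617 in Sow and 7763542 to 9488579 in M + G. Across genes, libraries within Sow correlated at r = 0.968 to 0.981, libraries within M + G at 0.966 to 0.981, and a Sow with an M + G library at 0.902 to 0.963. Sow 2, which the study excluded for its correlations, had the lowest scaling factor of the 6 libraries (0.762, against 0.938 and 0.957 in Sow and 1.01 to 1.08 in M + G). It also had the largest share of reads on ribosomal protein genes, 9.89%, against 7.58% in Sow unnumbered, 6.82% in Sow 3 and 3.59% to 5.09% in M + G. Called genes and list medians are therefore given with all 3 Sow libraries and again without Sow 2, the latter as a fold change or, for genes described by their reads, as an adjusted p. What sets Sow 2 apart was not tested.

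With all 3 Sow libraries, 1585 genes differed between M + G and Sow by at least 2-fold and with a p of at most 0.05 after Benjamini-Hochberg adjustment (10.3% of the genes tested). Of these called genes, 607 were higher in M + G (3.96%) and 978 were lower (6.38%). Without Sow 2, 9 genes passed both thresholds (0.0576% of 15634 genes), 3 of them higher (0.0192%) and 6 lower (0.0384%), and 3684 genes (23.6%) had an unadjusted p under 0.05. This count depended on the test, with 330 genes called by DESeq2, 956 by edgeR's exact test and 793 when the spread was estimated from the M + G and remaining Sow libraries only. The same direction was found without Sow 2 for all 1585 genes, 926 of them (58.4%) still differed by at least 2-fold and 1521 (96%) had an unadjusted p under 0.05. The repeat reuses the remaining libraries, from which these genes were also chosen. For 1558 of them (98.3%) the M + G and Sow libraries did not overlap at all, so their direction could not turn easily. The kept direction is thus no separate support. The median log2 fold change of the genes called higher went from 1.26 to 1.07 when Sow 2 was left out, and that of the genes called lower from −1.30 to −1.04. Sow 2 was the Sow library farthest from M + G in 1425 of the 1585 genes (89.9%). The count also fell to 18 without M + G 3 and to 131 without M + G 1, whereas it was 1067 without M + G 2, 1304 without Sow unnumbered and 2039 without Sow 3. Over all tested genes, M + G and Sow libraries did not overlap for 7828 (51.1%), with 3935 genes above (25.7%) and 3893 below (25.4%). A lack of overlap was required of the largest rises and falls below and held for most called genes. It is given as a description and adds no support to a call. Some genes that were not called, such as CYP11A1, PECAM1, VWF and VEGFA below, did not overlap either.

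**Figure D1:**
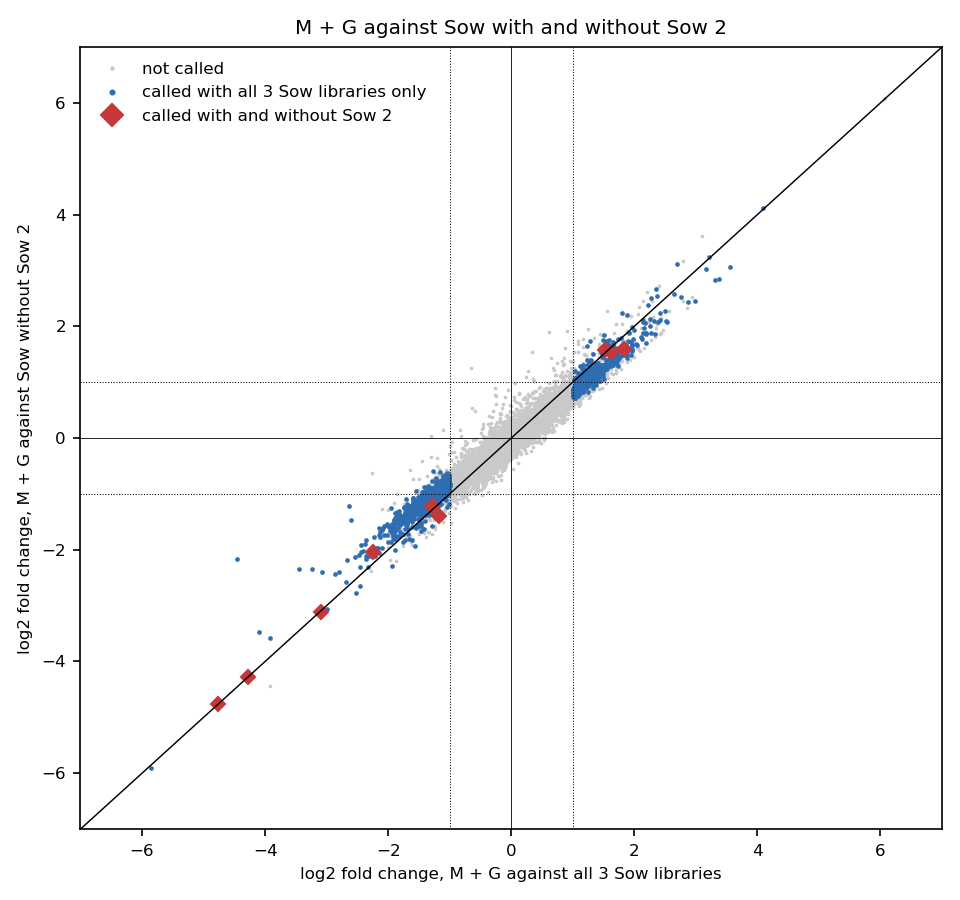
Log2 fold change of M + G against all 3 Sow libraries (horizontal) and against Sow without Sow 2 (vertical), 1 point per gene, with the line of equal values and dotted lines at a 2-fold change. The genes called with all 3 Sow libraries lie on the same side of 0 on both axes, most of them nearer to 0 without Sow 2, and 9 of the 1585 were called both ways. The 2 axes share all libraries except Sow 2, so the kept side is no separate support.

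The split between higher and lower genes depended on how libraries were scaled. With total reads in place of TMM factors, 1633 genes were called, 1145 higher and 488 lower (70.1% higher, against 38.3%), and the median log2 fold change of all genes was 0.27 in place of 0.05. Fold changes below are on the TMM scale, where the median gene hardly moved.

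The 9 genes called with and without Sow 2 included 2 genes of blood vessels that were higher in M + G. APLN encodes apelin, a secreted peptide that acts on the endothelial apelin receptor in vessel growth, and lies at chromosome X, 106236746 to 106246563 (RefSeq, Sscrofa11.1). It was at 30.4, 35.5 and 29 CPM in Sow and 100.3, 79.8 and 93.3 in M + G, so that every M + G library was above every Sow library. The log2 fold change was 1.53 ± 0.22 (adjusted p = 0.00789), and 1.58, adjusted p = 0.0497 without Sow 2. GPR4, a proton-sensing receptor of endothelial cells (chromosome 6, 51968310 to 51979931), was at 4.57, 2.34 and 3.23 CPM in Sow and 12.8, 12.4 and 11.1 in M + G. Again the diets did not overlap (log2 fold change 1.83 ± 0.24, adjusted p = 0.00511, and 1.60, adjusted p = 0.0497 without Sow 2). A gene with no symbol, ENSSSCG00000032946, was at 15.1, 14.6 and 16.8 CPM in Sow and 42.5, 46 and 54.3 in M + G. All M + G libraries had more than 2 times the level of any Sow library (log2 fold change 1.62 ± 0.21, adjusted p = 0.00452, and 1.54, adjusted p = 0.0497 without Sow 2).

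Among the 6 genes that were lower both ways, PHYHIPL and ENSSSCG00000048477 differed most. PHYHIPL (chromosome 14, 62525915 to 62630383) was at 55.4, 44.1 and 25.2 CPM in Sow and 3.47, 1.57 and 1.45 in M + G. Its Sow libraries varied among themselves but all lay far above M + G (log2 fold change −4.28 ± 0.49, adjusted p = 0.00206, and −4.27, adjusted p = 0.0094 without Sow 2). ENSSSCG00000048477, which has no symbol, was at 24.6, 19 and 10.3 CPM in Sow and 0.642, 0.314 and 1.00 in M + G. Here too the diets did not overlap (log2 fold change −4.76 ± 0.43, adjusted p = 0.000346, and −4.76, adjusted p = 0.00218 without Sow 2). Both were also low in every other formula group, at 1.03, 3.10 and 1.99 CPM in Milk for PHYHIPL and 1.03, 0.744 and 0.498 CPM for ENSSSCG00000048477. TXNIP, which binds thioredoxin and whose transcription rises with glucose (chromosome 4, 99348589 to 99351760), fell from 864, 536 and 786 CPM in Sow to 323, 366 and 279 CPM in M + G. Sow 2 was here the Sow library nearest to M + G (log2 fold change −1.18 ± 0.22, adjusted p = 0.0191, and −1.39, adjusted p = 0.0497 without Sow 2). PDLIM3, an actin-associated PDZ and LIM domain protein (chromosome 15, 46516178 to 46546658), was at 38.7, 58.6 and 57.5 CPM in Sow and 22.3, 18.7 and 22.3 in M + G. The lowest Sow library still exceeded every M + G library (log2 fold change −1.29 ± 0.19, adjusted p = 0.00946, and −1.22, adjusted p = 0.0497 without Sow 2).

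TAGLN3, a calponin family protein known mainly from neurons (chromosome 13, 147740913 to 147754845), was at 15.1, 21.5 and 12.8 CPM in Sow and 3.47, 3.35 and 3.56 in M + G. The 3 M + G libraries were nearly equal and all below Sow (log2 fold change −2.24 ± 0.26, adjusted p = 0.00206, and −2.04, adjusted p = 0.0094 without Sow 2). They were also below each Milk library, at 6.21, 8.43 and 7.10 CPM. The log2 difference from Milk was −1.07 (95% interval −1.63 to −0.50) but did not pass adjustment over all genes (adjusted p = 0.945). The remaining gene, ENSSSCG00000018071, was at 13.5, 15.9 and 18 CPM in Sow and 2.57, 1.67 and 1.34 in M + G, without overlap (log2 fold change −3.09 ± 0.35, adjusted p = 0.00206, and −3.12, adjusted p = 0.0094 without Sow 2). The 3 genes without a symbol fall outside the rule for named genes and are given because they complete the 9. When an M + G library was left out beside Sow 2, between 1 and 3 genes were called, ENSSSCG00000048477 each time.

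**Figure D2:**
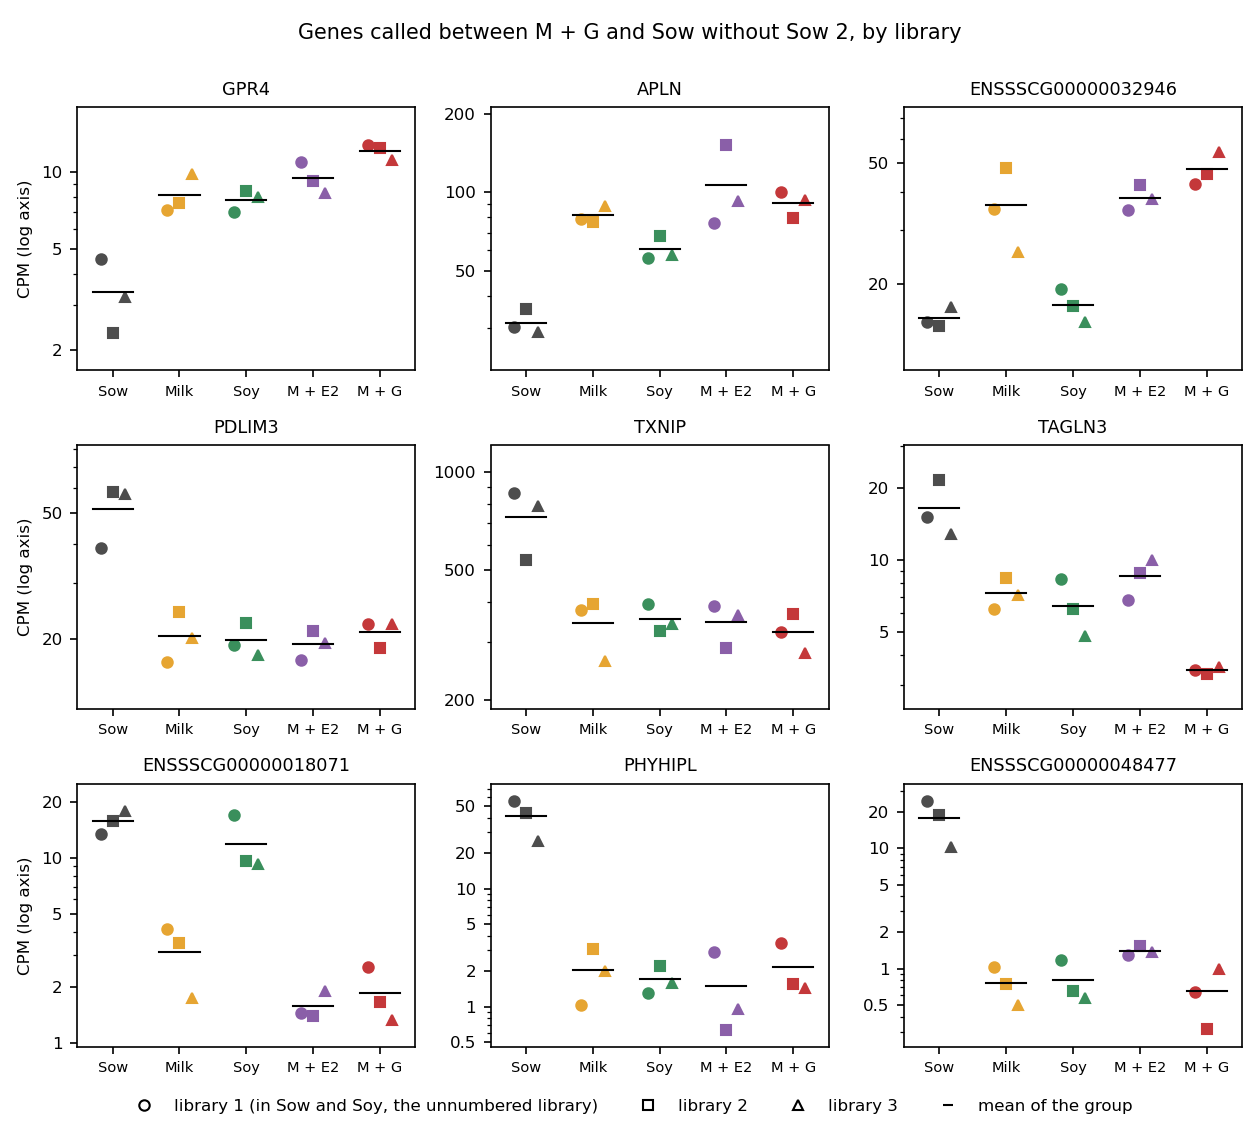
Level in CPM (log axis, a separate scale per panel) of the 9 genes called between M + G and Sow with and without Sow 2, 1 point per library in each of the 5 diet groups, with the group mean as a line. The M + G and Sow libraries do not overlap in any panel, and for PHYHIPL, PDLIM3, TXNIP and ENSSSCG00000048477 the other formula groups lie near M + G.

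Direct tests placed M + G beside the other formulas. Against Milk, the same formula without genistein, edgeR called 0 of 15328 genes (0%), with 367 genes at an unadjusted p under 0.05 (2.39%), and DESeq2 called 3. These 3 were the epithelial genes EPCAM, CDH1 and KRT14, named here after their values were seen. For the genes that differed most firmly from Sow the intervals of the difference from Milk were −0.29 to 0.61 for APLN, −1.12 to 1.20 for PHYHIPL, −0.56 to 0.38 for TXNIP and −0.37 to 0.45 for PDLIM3 on the log2 scale. For GPR4 the interval was 0.09 to 1.05, with M + G at 12.8, 12.4 and 11.1 CPM and Milk at 7.09, 7.56 and 9.84 CPM, and the adjusted p was 0.945. A miss of the threshold in this test does not show that the formulas with and without genistein act alike. Against M + E2, 0 genes were called by edgeR (0%), with 1027 at an unadjusted p under 0.05 (6.7%), and 18 by DESeq2. Against Soy, 2 genes were called (0.013%), with 578 at an unadjusted p under 0.05 (3.77%). They were ENSSSCG00000018071, lower in M + G (0.00652%), and ENSSSCG00000032946, higher in M + G (0.00652%), which are 2 of the 9 genes above.

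The largest rises with non-overlapping libraries were in genes with few reads in Sow. HOXB9, a homeobox factor of the posterior body axis, had 1, 1 and 1 reads in Sow and 8, 48 and 12 reads in M + G, a ratio of 19.5-fold (95% counting interval 6.39 to 96.8, adjusted p = 0.0384). Its neighbour HOXB4 had 0, 0 and 2 reads in Sow and 4, 11 and 12 in M + G (11.6-fold, 2.91 to 101, adjusted p = 0.0401). The intervals cover counting error only. More than 2 in 3 of the HOXB9 reads came from M + G 2, and without that library the log2 fold change went from 4.08 to 2.98 (adjusted p = 0.138). SLCO4A1, an organic anion transporter that carries thyroid hormones, had 2, 1 and 0 reads in Sow and 8, 10 and 18 in M + G (10.3-fold, 3.26 to 52.3, adjusted p = 0.0409). CRB2, a membrane protein that sets the polarity of epithelia, had 0, 0 and 2 reads in Sow and 12, 6 and 13 in M + G (13.3-fold, 3.39 to 115, adjusted p = 0.0337). In CRB2 the reads of Milk were as few as those of Sow, at 0.148, 0.124 and 0.249 CPM. Without Sow 2 the adjusted p of these 4 genes was 0.153 to 0.17.

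CASP1, the protease that activates interleukin-1, was among the 8 largest falls and was at 9.01, 10.1 and 9.34 CPM in Sow and 1.54, 2.30 and 1.78 in M + G. The 3 Sow libraries lay close together and far above M + G, and Sow 2 did not stand out (log2 fold change −2.32 ± 0.52, adjusted p = 0.022, and −2.31, adjusted p = 0.124 without Sow 2). S100A12, a calcium-binding protein of neutrophils, was at 6.19, 28.3 and 5.87 CPM in Sow and 1.16, 1.67 and 0.779 in M + G. The beta-defensin gene DEFB123 was at 2.82, 10.1 and 3.95 CPM in Sow and 0.642, 0.523 and 0.779 in M + G. Both fell, with log2 fold changes of −3.45 ± 0.80 (adjusted p = 0.022, and −2.34 without Sow 2) for S100A12 and −3.08 ± 0.62 (adjusted p = 0.0208, and −2.40 without Sow 2) for DEFB123. In both of these genes Sow 2 was far above the other Sow libraries. RPH3A, rabphilin, which acts in vesicle release, was at 32.4, 78 and 24.8 CPM in Sow and 1.93, 1.15 and 4.78 in M + G. RPH3A fell, with a log2 fold change of −4.09 ± 0.78 (adjusted p = 0.0191, and −3.48 without Sow 2). CDX4, a caudal homeobox factor, had 11, 26 and 20 reads in Sow and 2, 0 and 2 in M + G, a ratio of 16.6-fold (6.14 to 63, adjusted p = 0.018, and 0.112 without Sow 2). The remaining largest falls were C5orf58, with a log2 fold change of −2.69 ± 0.61 (adjusted p = 0.022, and −2.58 without Sow 2), and the small RNA gene Y_RNA_4, with −3.23 ± 0.65 (adjusted p = 0.0208, and −2.35 without Sow 2). For Y_RNA_4, the level in Sow 2 was 89.5 CPM against 23.7 and 24.8 CPM in the other Sow libraries.

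Genes of 32 lists of pathways and cell types were then counted. Over all lists, 53 members were called higher and 108 lower with all 3 Sow libraries, counting a gene again for each list that holds it. These counts were 3 and 1 without Sow 2, 7 and 1 without M + G 1, and 3 and 0 without M + G 3, so almost every count of called members below rests on those 3 libraries. Apart from the 9 genes above, none of the called genes named here passed edgeR's quasi-likelihood test without Sow 2, where their adjusted p was 0.112 to 0.264. The medians of the lists moved less. Lists are described by their counts and medians beside those of all genes tested, 607 higher and 978 lower with a median log2 fold change of 0.05, or 0.02 without Sow 2. The share called was 10.3% over all genes. It was 27.6% to 57.9% in the ribosomal, oxidative phosphorylation, proteasome, chromatin, matrix, vessel, endothelial, myoid, erythroid and epithelial lists. In every other list it was 0% to 16.7%, and there the counts of called members are not read as results about the list.

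**Figure D3:**
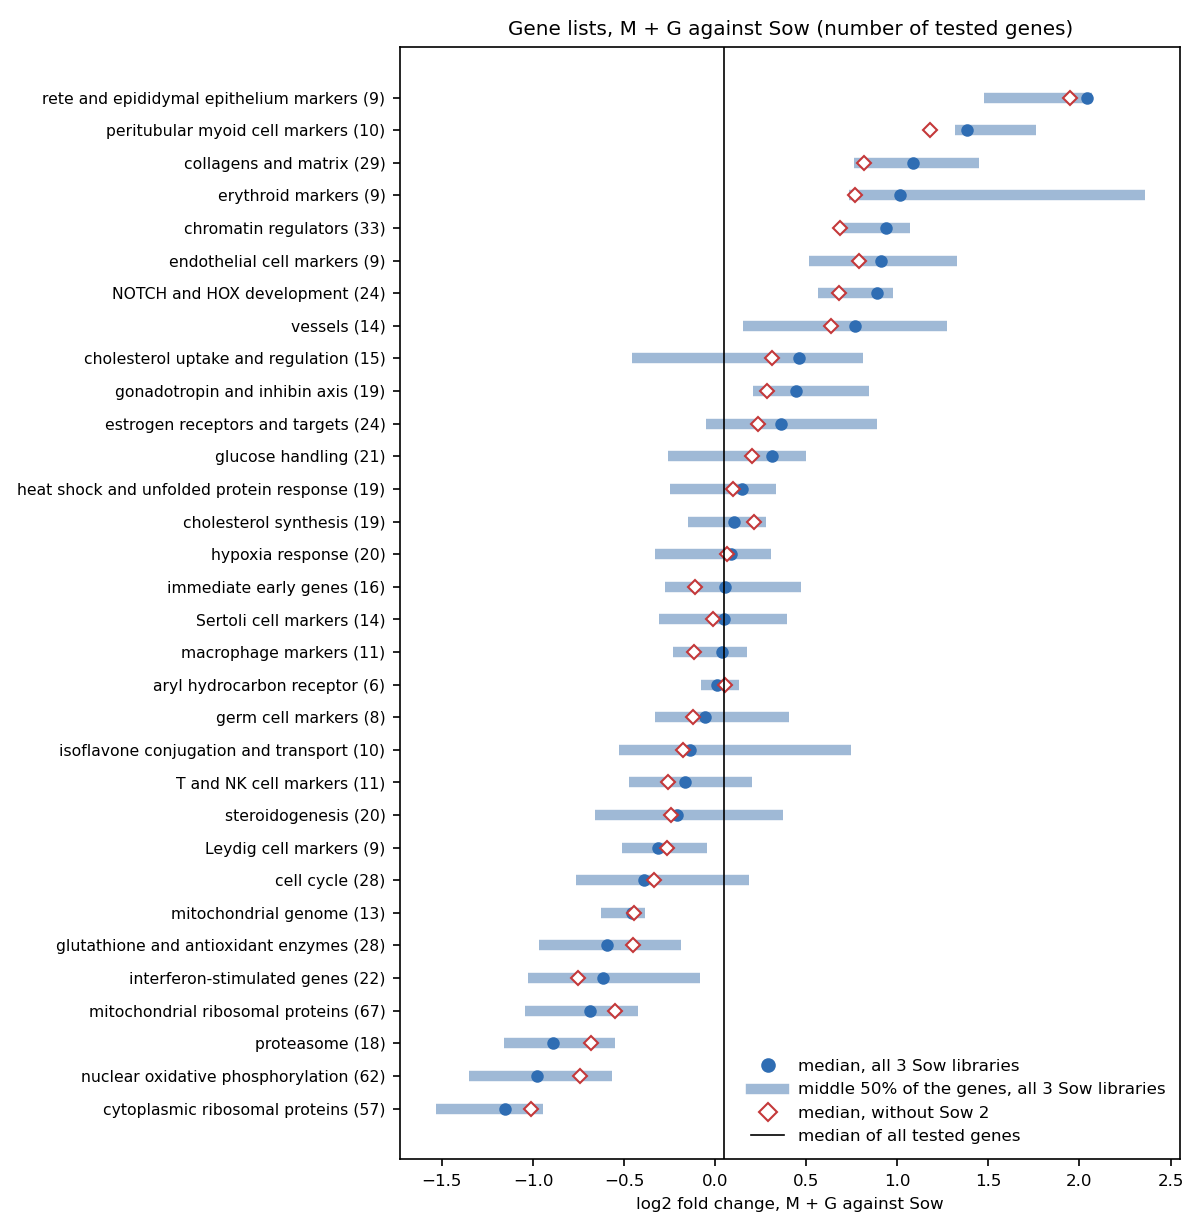
Median log2 fold change of M + G against Sow for the tested members of 32 gene lists (number in brackets), with the middle 50% of the members as a bar. A diamond marks the median without Sow 2, over the members tested in that fit. Ribosomal, oxidative phosphorylation and proteasome genes have the lowest medians and epithelial, myoid, matrix and erythroid genes the highest with all 3 Sow libraries, and most diamonds lie nearer to 0.

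Genes of protein synthesis and of cellular respiration were lower in M + G. Of the 57 cytoplasmic ribosomal protein genes tested, 33 fell and 0 rose, all 57 had a lower estimate, and the median log2 fold change was −1.15 (−1.01 without Sow 2, where 0 were called and 33 had an unadjusted p under 0.05). RPS15A, of the small subunit, was at 855, 1524 and 762 CPM in Sow and 221, 324 and 201 in M + G. RPS29, also of the small subunit, was at 856, 1406 and 791 CPM in Sow and 259, 399 and 255 in M + G. Both fell without overlap between the diets, with log2 fold changes of −2.07 ± 0.48 (adjusted p = 0.022, and −1.74 without Sow 2) for RPS15A and −1.74 ± 0.39 (adjusted p = 0.022, and −1.47 without Sow 2) for RPS29. Sow 2 was highest in both genes. The small subunit genes had a median of −1.43 (18 of 26 fell) and those of the large subunit −1.10 (15 of 31 fell). Ribosomal protein genes have many processed pseudogenes, and reads of 36 bases can be split between such copies, so single values in this family are uncertain. Of the 67 mitochondrial ribosomal protein genes, 19 fell and 0 rose (median −0.69, −0.55 without Sow 2). MRPL39 was at 104, 173 and 95 CPM in Sow and 36.5, 38.6 and 30.8 in M + G, and MRPL22 at 117, 233 and 120.0 CPM in Sow and 58.2, 63.8 and 49.3 in M + G. Both fell without overlap between the diets, with log2 fold changes of −1.81 ± 0.34 (adjusted p = 0.0191, and −1.53 without Sow 2) for MRPL39 and −1.46 ± 0.31 (adjusted p = 0.022, and −1.09 without Sow 2) for MRPL22.

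Nuclear genes of oxidative phosphorylation followed the same direction, with 29 of 62 lower, 0 higher and a median of −0.98 (−0.74 without Sow 2). The count was 14 of 32 for complex I, 1 of 4 for complex II, 4 of 7 for complex III, 4 of 8 for complex IV and 6 of 11 for complex V, the ATP synthase. NDUFA1, an accessory subunit of complex I, was at 39.3, 97.1 and 44.8 CPM in Sow and 12.3, 17.4 and 13.5 in M + G. UQCRC2, a core protein of complex III, was at 343, 572 and 289 CPM in Sow and 151, 136 and 108 in M + G. ATP5MG, a membrane subunit of the ATP synthase, was at 225, 398 and 216 CPM in Sow and 99.9, 108 and 82.6 in M + G. All 3 fell without overlap between the diets, with log2 fold changes of −2.06 ± 0.42 (adjusted p = 0.0208, and −1.58 without Sow 2) for NDUFA1, −1.61 ± 0.36 (adjusted p = 0.022, and −1.30 without Sow 2) for UQCRC2 and −1.53 ± 0.33 (adjusted p = 0.022, and −1.23 without Sow 2) for ATP5MG. In each of these 3 genes Sow 2 was the highest library. The 13 genes of protein subunits encoded by the mitochondrial genome had a median of −0.46 (−0.44 without Sow 2), and 1 of them fell, the ATP synthase subunit ATP8. RNA genes of that genome are not in this list. ATP8 was at 272, 353 and 327 CPM in Sow and 231, 109 and 127 in M + G. ATP8 fell without overlap between the diets, with a log2 fold change of −1.03 ± 0.32 (adjusted p = 0.0367, and −0.98 without Sow 2). In ATP8 the M + G 1 library, at 231 CPM, was near the lowest Sow library, and without M + G 1 the median of the 13 genes was −0.71.

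Proteasome genes, which encode the protease complex that degrades ubiquitin-tagged proteins, were lower in 6 of 18 and higher in 0, with all 18 estimates below 0 and a median of −0.89 (−0.68 without Sow 2). PSMA2 was at 316, 680.1 and 310.3 CPM in Sow and 111, 139.6 and 96.1 in M + G, and PSMA6 at 359, 609 and 334 CPM in Sow and 165, 184 and 157 in M + G. Both fell without overlap between the diets, with log2 fold changes of −1.91 ± 0.44 (adjusted p = 0.022, and −1.47 without Sow 2) for PSMA2 and −1.36 ± 0.35 (adjusted p = 0.0249, and −1.07 without Sow 2) for PSMA6. Scaling by total reads brought the medians nearer to 0 without turning them, at −0.91 for cytoplasmic ribosomal proteins, −0.74 for oxidative phosphorylation and −0.64 for the proteasome. The median of all genes moved up with them. Measured from it, these medians went from −1.20 to −1.18, from −1.03 to −1 and from −0.94 to −0.91, in the same order. Relative to the Sow mean, the mean log2 level of the ribosomal protein genes was −0.15, 0.49 and −0.33 in Sow, −1.35, −0.85 and −1.40 in M + G and −0.40, −0.34 and −1.58 in Milk 1, 2 and 3. Milk 1 and Milk 2 thus lay near the lowest Sow library, and Milk 3 below every M + G library. The median difference of M + G from Milk over these genes was −0.53, with 0 of 57 at an unadjusted p under 0.05.

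**Figure D4:**
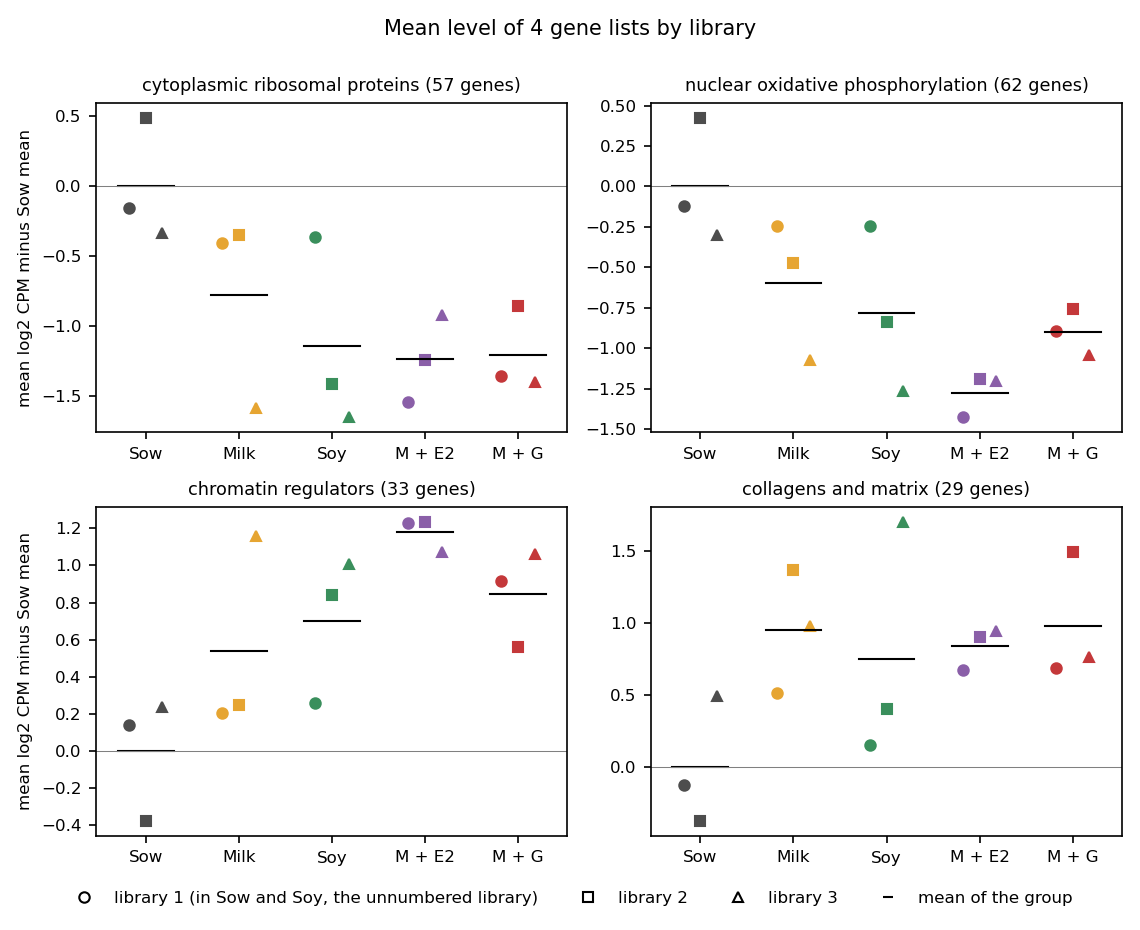
Mean log2 CPM of the tested members of 4 gene lists minus their mean in Sow, 1 point per library in each diet group, with the group mean as a line. The 3 M + G libraries lie below the 3 Sow libraries for ribosomal and oxidative phosphorylation genes and above them for chromatin and matrix genes, while Sow 2 is the Sow library farthest from M + G in all 4 panels and Milk spreads widely.

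Genes of chromatin, matrix and vessels were higher in M + G. Of 33 chromatin regulators, 10 rose and 0 fell, 32 estimates were above 0, the libraries of 31 did not overlap (25.7% of all genes were above in this way) and the median was 0.94 (0.69 without Sow 2). Relative to the Sow mean, the mean log2 level of these genes was 0.20, 0.25 and 1.16 in Milk 1, 2 and 3. In Soy unnumbered, 2 and 3 it was 0.26, 0.84 and 1.01. Milk 3 and Soy 3, highest here within their diets, were lowest there for ribosomal protein genes (−1.58 and −1.65). The order was also opposite within Sow and within M + G. Sow 3 and M + G 3 were highest for chromatin (0.24 and 1.06) and lowest for ribosomal protein genes (−0.33 and −1.40). Sow 2 and M + G 2 were lowest for chromatin (−0.38 and 0.56) and highest for ribosomal protein genes (0.49 and −0.85). In M + E2 the library highest for chromatin was not the one lowest for ribosomal protein genes. What the 2 lists share across libraries, RNA quality included, was not tested. CHD3, a remodeling ATPase of the NuRD complex, was at 154, 110.1 and 174 CPM in Sow and 328, 275 and 369 in M + G. Its relative CHD4 was at 123, 86.6 and 142 CPM in Sow and 262, 196 and 281 in M + G. Both rose without overlap between the diets, with log2 fold changes of 1.15 ± 0.30 (adjusted p = 0.0253, and 0.95 without Sow 2) for CHD3 and 1.07 ± 0.28 (adjusted p = 0.026, and 0.86 without Sow 2) for CHD4. Sow 2 was the lowest library in both. The histone deacetylase gene HDAC7 was at 52.3, 37.4 and 63.5 CPM in Sow and 101, 113 and 120.3 in M + G. CHD7, a remodeler bound at enhancers, was at 21, 15.6 and 24.9 CPM in Sow and 48.1, 31.8 and 62.7 in M + G. Both rose without overlap between the diets, with log2 fold changes of 1.12 ± 0.26 (adjusted p = 0.022, and 0.91 without Sow 2) for HDAC7 and 1.21 ± 0.35 (adjusted p = 0.0298, and 1.01 without Sow 2) for CHD7.

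Of 29 genes of collagens and matrix, 8 rose and 0 fell, with a median of 1.09 (0.82 without Sow 2). Their summed level was 12304, 11071 and 20321 CPM in Sow and 20386, 46222 and 22089 CPM in M + G. M + G 1 was thus level with Sow 3, and M + G 2 lay far above the other M + G libraries. Among the 14 collagen genes 5 rose, and all 14 estimates were above 0. COL18A1, a basement membrane collagen from which endostatin is cut, was at 111, 60.2 and 125 CPM in Sow and 283, 332 and 352 in M + G. COL4A2, a chain of basement membrane collagen IV, was at 388, 259 and 468 CPM in Sow and 1060.1, 1184 and 1146 in M + G. Both rose without overlap between the diets, with log2 fold changes of 1.71 ± 0.36 (adjusted p = 0.022, and 1.42 without Sow 2) for COL18A1 and 1.61 ± 0.44 (adjusted p = 0.0268, and 1.37 without Sow 2) for COL4A2. LAMB2, a laminin chain of basement membranes, was at 163, 105 and 186 CPM in Sow and 346, 367 and 438 in M + G, and the laminin chain LAMC1 at 135, 94.2 and 161 CPM in Sow and 309, 319 and 312 in M + G. Both rose without overlap between the diets, with log2 fold changes of 1.34 ± 0.34 (adjusted p = 0.0249, and 1.10 without Sow 2) for LAMB2 and 1.27 ± 0.33 (adjusted p = 0.0256, and 1.05 without Sow 2) for LAMC1. All 4 of these genes were about as high in M + E2, where LAMC1 was at 371, 392 and 352 CPM, and they ranged widely in Milk, where it was at 178, 301 and 356 CPM.

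Of 24 genes of NOTCH signalling, HOX factors and related nuclear receptors, 4 rose and 0 fell (median 0.89, and 0.68 over 26 genes without Sow 2). Besides HOXB9 and HOXB4 these were NOTCH3 and NR2F2. Relative to the Sow mean, the mean log2 level of the list was −0.11, −0.37 and 0.48 in Sow. In M + G it was 0.68, 1.44 and 0.60, so M + G 2 was highest and M + G 3 was near Sow 3. NOTCH3, a receptor of mural cells of vessels, was at 31.2, 21.2 and 46.2 CPM in Sow and 99, 133 and 113 in M + G. NR2F2, a nuclear receptor of testicular interstitial cells, was at 96.9, 68.6 and 115 CPM in Sow and 196, 194 and 182 in M + G. Both rose without overlap between the diets, with log2 fold changes of 1.80 ± 0.48 (adjusted p = 0.0261, and 1.54 without Sow 2) for NOTCH3 and 1.02 ± 0.24 (adjusted p = 0.022, and 0.81 without Sow 2) for NR2F2. Of 14 vessel genes, 7 rose and 0 fell, with a median of 0.77 (0.64 without Sow 2, where APLN and GPR4 stayed called). KDR, the main receptor for vascular endothelial growth factor, was at 34.6, 23.1 and 40.6 CPM in Sow and 81.6, 68.5 and 58.5 in M + G. TIE1, an endothelial receptor kinase, was at 30.8, 20.9 and 34.7 CPM in Sow and 67, 80.5 and 69.9 in M + G. CDH5, the cadherin of endothelial junctions, was at 52.9, 36.1 and 67.9 CPM in Sow and 149, 147 and 124 in M + G. All 3 rose without overlap between the diets, with log2 fold changes of 1.08 ± 0.24 (adjusted p = 0.022, and 0.85 without Sow 2) for KDR, 1.33 ± 0.30 (adjusted p = 0.022, and 1.11 without Sow 2) for TIE1 and 1.42 ± 0.32 (adjusted p = 0.022, and 1.18 without Sow 2) for CDH5. The ligand gene VEGFA was at 43, 35.9 and 38.9 CPM in Sow and 47.2, 51.2 and 58 in M + G. VEGFA did not pass the test, with a log2 fold change of 0.41 ± 0.19 (adjusted p = 0.128).

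The main enzymes that turn cholesterol into androgens and estrogens did not pass the test. STAR, given above, had a log2 fold change of −0.05 ± 0.35 (adjusted p = 0.933), with the Sow and M + G libraries overlapping. CYP11A1, which cleaves the side chain of cholesterol, was at 3075, 3198 and 2944 CPM in Sow and 2550.2, 2283 and 2294 in M + G. CYP17A1, which makes androgens, was at 7551, 6029 and 6784 CPM in Sow and 9152, 7533 and 8106 in M + G. CYP19A1, the aromatase that makes estrogens, was at 3818, 5243 and 4337 CPM in Sow and 4449, 3493 and 2816 in M + G. None of these passed the test, with log2 fold changes of −0.37 ± 0.31 (adjusted p = 0.376) for CYP11A1, 0.28 ± 0.33 (adjusted p = 0.535) for CYP17A1 and −0.32 ± 0.31 (adjusted p = 0.462) for CYP19A1. The 95% intervals of these log2 differences were −0.80 to 0.71 for STAR, −1.03 to 0.29 for CYP11A1, −0.43 to 0.99 for CYP17A1 and −0.99 to 0.36 for CYP19A1.

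Of the whole list of 20 steroidogenesis genes, 3 fell and 0 rose, with a median of −0.21 (−0.24 without Sow 2), which was 0.00397 with total reads. CYB5A, cytochrome b5, which favours androgen synthesis by CYP17A1, was at 12281, 23992 and 10433 CPM in Sow and 5429, 7649 and 4107 in M + G. SULT2A1, which sulfates DHEA, was at 518, 784 and 507 CPM in Sow and 261, 242 and 337 in M + G. NR0B1, a repressor of steroidogenic genes, was at 12.5, 19.3 and 15.5 CPM in Sow and 7.57, 5.02 and 7.45 in M + G. All 3 fell without overlap between the diets, with log2 fold changes of −1.44 ± 0.46 (adjusted p = 0.0393, and −1.02 without Sow 2) for CYB5A, −1.11 ± 0.30 (adjusted p = 0.0268, and −0.91 without Sow 2) for SULT2A1 and −1.24 ± 0.34 (adjusted p = 0.0277, and −1.10 without Sow 2) for NR0B1. For CYB5A, Sow 2 alone exceeded the sum of the other Sow libraries. Of 19 genes of cholesterol synthesis, 1 fell and 0 rose (median 0.10, 0.22 without Sow 2). With total reads 1 was called higher and 0 lower (median 0.34), and the median was −0.09 without Sow unnumbered and −0.06 without M + G 1, so the sign of the median turned with the libraries used. HSD17B7, which reduces a ketone in sterol synthesis, was at 28.4, 101 and 40.7 CPM in Sow and 22, 28.3 and 20.2 in M + G. HSD17B7 fell without overlap between the diets, with a log2 fold change of −1.27 ± 0.40 (adjusted p = 0.0381, and −0.59 without Sow 2). M + G 2 was level with Sow unnumbered in this gene, and Sow 2 stood far above both.

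Of 15 genes of cholesterol uptake and regulation, 1 fell and 0 rose (median 0.46, 0.31 without Sow 2). With total reads 4 were called higher and 0 lower (median 0.66), so the direction of the calls turned with the scaling. INSIG2, which retains the sterol sensor complex in the endoplasmic reticulum, was at 38.5, 54.3 and 32.2 CPM in Sow and 21.6, 22.1 and 17.9 in M + G. INSIG2 fell without overlap between the diets, with a log2 fold change of −1.02 ± 0.34 (adjusted p = 0.047, and −0.82 without Sow 2). None of the 19 genes of the gonadotropin and inhibin axis was called (median 0.44, 0.28 without Sow 2). That list holds FSHR, the receptor for follicle-stimulating hormone, at 60.3, 46.4 and 58.9 CPM in Sow and 67.3, 43.9 and 94 in M + G. FSHR did not pass the test, with a log2 fold change of 0.31 ± 0.31 (adjusted p = 0.473).

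The estrogen receptor genes were not called. ESR1 was at 15.5, 11.7 and 16.9 CPM in Sow and 16, 18.4 and 17.2 in M + G, and ESR2 at 0.942, 1.17 and 0.719 CPM in Sow and 0.513, 0.732 and 0.890 in M + G. GPER1, a membrane receptor, was at 0.942, 0.146 and 1.44 CPM in Sow and 1.54, 3.76 and 1.34 in M + G. None of these passed the test, with log2 fold changes of 0.23 ± 0.24 (adjusted p = 0.481) for ESR1, −0.37 ± 0.46 (adjusted p = 0.56) for ESR2 and 1.35 ± 1.02 (adjusted p = 0.33) for GPER1. Of 24 genes of receptors, coregulators and known estrogen targets, 3 rose and 0 fell (12.5%, against 10.3% of all genes), with a median of 0.36 (0.23 without Sow 2, where 0 were called). GREB1, an estrogen-induced cofactor of ESR1, was at 11.6, 14 and 11.6 CPM in Sow and 21.8, 21.3 and 41.4 in M + G, with 1 high library, M + G 3. CCND1, cyclin D1, was at 20.7, 20.3 and 30.3 CPM in Sow and 48.3, 67 and 45.8 in M + G. Both rose without overlap between the diets, with log2 fold changes of 1.19 ± 0.40 (adjusted p = 0.0469, and 1.24 without Sow 2) for GREB1 and 1.17 ± 0.32 (adjusted p = 0.0275, and 1.04 without Sow 2) for CCND1. The progesterone receptor gene PGR, a classical estrogen target, was at 3.09, 4.23 and 3.00 CPM in Sow and 1.80, 4.39 and 2.34 in M + G. PGR did not pass the test, with a log2 fold change of −0.26 ± 0.37 (adjusted p = 0.621). Against M + E2, the diet with added estradiol, the log2 difference was 0.10 for GREB1 (−0.72 to 0.92), 0.36 for CCND1 (−0.32 to 1.03) and 0.19 for PGR (−0.62 to 1.00), with 95% intervals in brackets. Against Milk it was 0.46 (−0.37 to 1.28), −0.09 (−0.76 to 0.59) and 0.01 (−0.79 to 0.82).

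Of 10 tested genes of isoflavone conjugation and transport, 1 rose and 0 fell (10%, against 10.3% of all genes), with a median of −0.14 (−0.18 without Sow 2, but 0.07 with total reads). The called gene was GUSB, beta-glucuronidase, which removes glucuronic acid from conjugates in lysosomes, at 125, 106 and 127 CPM in Sow and 384, 316 and 414 in M + G. GUSB rose without overlap between the diets, with a log2 fold change of 1.64 ± 0.33 (adjusted p = 0.0208, and 1.52 without Sow 2). GUSB read 309, 231 and 253 CPM in Milk, 228, 647 and 633 CPM in the 3 Soy libraries and 150.1, 201 and 267 CPM in M + E2. Each M + G library was thus above all Milk libraries, with a log2 difference of 0.49 (−0.19 to 1.17) that did not pass adjustment (adjusted p = 0.945). None of the 6 tested genes of the aryl hydrocarbon receptor was called (median 0.01, and −0.03 for the same genes without Sow 2). Over the 7 genes tested without Sow 2 the median was 0.06. AHR itself was at 57.8, 54.2 and 53.6 CPM in Sow and 54.6, 53.2 and 50.4 in M + G, and its target CYP1B1 at 344, 315 and 278 CPM in Sow and 344, 280.3 and 264 in M + G. Neither passed the test, with log2 fold changes of −0.07 ± 0.13 (adjusted p = 0.735) for AHR and −0.08 ± 0.17 (adjusted p = 0.744) for CYP1B1. CYP1A1, another target, did not pass the filter on low counts.

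Of 28 genes of antioxidant enzymes, 3 fell and 0 rose (10.7%, against 10.3% of all genes), with 23 estimates below 0 (median −0.59, −0.45 without Sow 2). PRDX3, the peroxiredoxin of mitochondria, was at 2158, 4071 and 2192 CPM in Sow and 1271, 1021 and 755 in M + G. PRDX2, its cytosolic relative, was at 931, 1521 and 953 CPM in Sow and 551, 542 and 521 in M + G. MGST2, a membrane glutathione transferase, was at 18.7, 43.7 and 13.5 CPM in Sow and 5.13, 12.1 and 8.46 in M + G. All 3 fell without overlap between the diets, with log2 fold changes of −1.47 ± 0.41 (adjusted p = 0.0277, and −1.13 without Sow 2) for PRDX3, −1.08 ± 0.25 (adjusted p = 0.022, and −0.84 without Sow 2) for PRDX2 and −1.55 ± 0.41 (adjusted p = 0.0261, and −0.94 without Sow 2) for MGST2. Of 19 chaperone genes 1 rose and 2 fell (median 0.15, 0.10 without Sow 2). HYOU1, a chaperone of the endoplasmic reticulum, was at 69.1, 51 and 77.3 CPM in Sow and 144, 112 and 141 in M + G. HYOU1 rose without overlap between the diets, with a log2 fold change of 1.01 ± 0.29 (adjusted p = 0.0304, and 0.82 without Sow 2). HSPE1, the mitochondrial co-chaperonin, was at 965, 1883 and 907 CPM in Sow and 427, 521 and 305 in M + G. DNAJA1, a co-chaperone of HSP70, was at 962, 1463 and 1218 CPM in Sow and 635, 576 and 578 in M + G. Both fell without overlap between the diets, with log2 fold changes of −1.58 ± 0.47 (adjusted p = 0.0328, and −1.20 without Sow 2) for HSPE1 and −1.03 ± 0.26 (adjusted p = 0.0249, and −0.90 without Sow 2) for DNAJA1.

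Of 21 genes of glucose handling, 1 rose, HK1, and 1 fell, TXNIP (9.52%, against 10.3% of all genes), with a median of 0.31 (0.20 over 22 genes without Sow 2). HK1, the hexokinase of most tissues, was at 118, 78.9 and 94 CPM in Sow and 215, 149 and 223 in M + G. HK1 rose without overlap between the diets, with a log2 fold change of 1.01 ± 0.26 (adjusted p = 0.0253, and 0.85 without Sow 2). Of 20 genes that respond to low oxygen, 1 rose, APLN, and 2 fell, TXNIP and ANKRD37 (median 0.09, 0.07 without Sow 2). ANKRD37 was at 7.67, 7.89 and 4.79 CPM in Sow and 1.67, 3.66 and 2.78 in M + G. ANKRD37 fell without overlap between the diets, with a log2 fold change of −1.31 ± 0.42 (adjusted p = 0.0423, and −1.23 without Sow 2).

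Of 28 cell cycle genes, 3 fell and 0 rose (10.7%, against 10.3% of all genes), with a median of −0.39 (−0.34 without Sow 2). With total reads, 1 was called lower and 1 higher. CDK1, the kinase of mitotic entry, was at 60.7, 101 and 51 CPM in Sow and 27.3, 29.8 and 23.4 in M + G. PCNA, the clamp of DNA polymerases, was at 204, 311 and 172 CPM in Sow and 98.2, 105 and 95.9 in M + G. GMNN, geminin, an inhibitor of replication licensing, was at 29.5, 51.3 and 24 CPM in Sow and 14, 15.5 and 13.1 in M + G. All 3 fell without overlap between the diets, with log2 fold changes of −1.40 ± 0.38 (adjusted p = 0.027, and −1.09 without Sow 2) for CDK1, −1.20 ± 0.33 (adjusted p = 0.0276, and −0.95 without Sow 2) for PCNA and −1.29 ± 0.43 (adjusted p = 0.045, and −0.95 without Sow 2) for GMNN. The median of 16 immediate early genes was 0.05, and −0.11 without Sow 2. Of these genes 1 rose, the transcription factor gene EGR1, at 46.7, 38.4 and 60.6 CPM in Sow and 93.8, 135 and 118 in M + G. EGR1 rose without overlap between the diets, with a log2 fold change of 1.25 ± 0.32 (adjusted p = 0.025, and 1.07 without Sow 2). FOS, another such factor, was at 14.7, 17.4 and 13.5 CPM in Sow and 17.1, 35.1 and 22 in M + G. FOS did not pass the test, with a log2 fold change of 0.71 ± 0.55 (adjusted p = 0.34).

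Interferon-stimulated genes were lower in 2 of 22 and higher in 0 (9.09%, against 10.3% of all genes). The median was −0.61 with all 3 Sow libraries and −0.75 without Sow 2, so for this list the difference did not shrink when that library was left out. Relative to the Sow mean, the mean log2 level of the list was −0.06, −0.18 and 0.24 in Sow. In M + G it was −0.88, −0.20 and −0.67, so M + G 2 was level with Sow 2, the lowest Sow library in this list. IFI6, a mitochondrial interferon-induced protein, was at 267, 208 and 195 CPM in Sow and 41.7, 98.2 and 61.3 in M + G, and IFI44L at 69.5, 88.9 and 73 CPM in Sow and 21.4, 35.1 and 27.9 in M + G. Both fell without overlap between the diets, with log2 fold changes of −1.73 ± 0.46 (adjusted p = 0.0261, and −1.82 without Sow 2) for IFI6 and −1.45 ± 0.32 (adjusted p = 0.022, and −1.37 without Sow 2) for IFI44L. MX1, a dynamin-like antiviral GTPase, was at 12.9, 13.6 and 37.1 CPM in Sow and 15.9, 37.6 and 22.9 in M + G. ISG15, a ubiquitin-like modifier, was at 17.9, 15.2 and 27.4 CPM in Sow and 6.68, 19.2 and 15.9 in M + G. The diets overlapped in both. Neither passed the test, with log2 fold changes of 0.26 ± 0.45 (adjusted p = 0.679) for MX1 and −0.53 ± 0.39 (adjusted p = 0.315) for ISG15.

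Markers of the main testicular cell types were not called. None of the 9 Leydig cell markers tested was called (median −0.32, −0.27 without Sow 2). Their summed level was 26211, 27604 and 25856 CPM in Sow and 26192, 21681 and 23496 CPM in M + G. INSL3, the Leydig cell hormone of testicular descent, was at 5303, 6148 and 6555 CPM in Sow and 4327, 2966 and 5359 in M + G. INSL3 did not pass the test, with a log2 fold change of −0.51 ± 0.30 (adjusted p = 0.213). None of the 14 Sertoli cell markers was called, although 1 passed the adjusted p with less than a 2-fold difference (median 0.05, −0.01 without Sow 2). Their summed level was 7167, 8345 and 7364 CPM in Sow and 7243, 4423 and 9314 CPM in M + G. M + G 2 thus lay below every Sow library and M + G 3 above, which the median near 0 does not show. SOX9, the factor of Sertoli cell fate, was at 81.7, 60.02 and 77.8 CPM in Sow and 110.4, 57.6 and 126 in M + G. AMH is given above. Neither passed the test, with log2 fold changes of 0.42 ± 0.32 (adjusted p = 0.333) for SOX9 and 0.60 ± 0.31 (adjusted p = 0.154) for AMH. None of the 8 germ cell markers was called (median −0.06, −0.12 without Sow 2, but 0.15 with total reads). DDX4, the germ cell helicase also named VASA, was at 11.4, 10.4 and 5.15 CPM in Sow and 6.16, 3.66 and 3.45 in M + G. KIT, a receptor of spermatogonia, was at 133, 108 and 137 CPM in Sow and 84.6, 149 and 122 in M + G. Neither passed the test, with log2 fold changes of −1.02 ± 0.39 (adjusted p = 0.0674) for DDX4 and −0.09 ± 0.26 (adjusted p = 0.814) for KIT. DAZL, another germ cell marker, was not analysed here.

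Markers of some other cells moved with the diets. All 10 peritubular myoid markers had estimates above 0, 4 rose, and the median was 1.38 (1.18 without Sow 2). Their summed level was 785, 630.3 and 1191 CPM in Sow and 1399, 4014 and 1401 CPM in M + G, so M + G 2 had more than the other 2 M + G libraries together. Without M + G 2 the median was 0.74 and 0 markers were called. SMTN, smoothelin, was at 68.5, 47.5 and 82.3 CPM in Sow and 136, 224 and 128 in M + G. DES, desmin, was at 18.8, 15.5 and 21.3 CPM in Sow and 29.8, 73.7 and 36 in M + G. Both rose without overlap between the diets, with log2 fold changes of 1.30 ± 0.38 (adjusted p = 0.0317, and 1.07 without Sow 2) for SMTN and 1.33 ± 0.41 (adjusted p = 0.037, and 1.18 without Sow 2) for DES. MYLK, the kinase of the smooth muscle myosin light chain, was at 86.5, 71.6 and 123 CPM in Sow and 183, 312 and 208 in M + G. LMOD1, an actin nucleator of smooth muscle, was at 5.11, 2.92 and 7.19 CPM in Sow and 16.4, 48.2 and 17 in M + G. Both rose without overlap between the diets, with log2 fold changes of 1.32 ± 0.40 (adjusted p = 0.035, and 1.13 without Sow 2) for MYLK and 2.41 ± 0.80 (adjusted p = 0.0451, and 2.11 without Sow 2) for LMOD1. ACTA2, smooth muscle actin, was at 172, 140.0 and 319 CPM in Sow and 274, 1142 and 290.4 in M + G. ACTA2 did not pass the test, with a log2 fold change of 1.44 ± 0.75 (adjusted p = 0.162).

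Of 9 endothelial markers 3 rose (median 0.91, 0.79 without Sow 2), KDR, TIE1 and CDH5. The summed level of the 9 was 431, 379 and 531 CPM in Sow and 819, 970.0 and 770.4 CPM in M + G, without overlap. PECAM1, an adhesion molecule of endothelium, was at 112, 109 and 140.0 CPM in Sow and 176, 224 and 153 in M + G, and VWF, von Willebrand factor, at 72.5, 45 and 107 CPM in Sow and 194, 223 and 227 in M + G. Neither passed the test, with log2 fold changes of 0.61 ± 0.32 (adjusted p = 0.163) for PECAM1 and 1.52 ± 0.55 (adjusted p = 0.0573) for VWF. KDR, TIE1 and CDH5 were already given with the vessel genes above, so the called endothelial markers are no separate observation. The part of cell number in these values, and in those of basement membrane and NOTCH genes, was not tested.

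Of 9 erythroid markers 4 rose, and all 9 estimates were above 0 (median 1.01, 0.77 without Sow 2). GATA1, the master factor of red cell development, had 2, 1 and 2 reads in Sow and 16, 10 and 15 in M + G (7.04-fold, 2.79 to 22.8, adjusted p = 0.0191, and 0.116 without Sow 2). SLC4A1, the anion exchanger of red cells, had 2, 3 and 1 reads in Sow and 11, 13 and 24 in M + G (6.87-fold, 2.94 to 19.7, adjusted p = 0.0332, and 0.137 without Sow 2). AHSP, which stabilises alpha-hemoglobin, was at 0.538, 1.17 and 0.719 CPM in Sow and 4.24, 4.71 and 3.56 in M + G. AHSP rose without overlap between the diets, with a log2 fold change of 2.36 ± 0.60 (adjusted p = 0.0249, and 2.66 without Sow 2). Hemoglobin itself was less clear. HBB, the beta chain, was at 517, 558 and 476 CPM in Sow and 833, 1323 and 423 in M + G, with M + G on both sides of Sow. HBB did not pass the test, with a log2 fold change of 0.73 ± 0.50 (adjusted p = 0.276). The summed level of the list, untested members included, was 544, 584 and 508 CPM in Sow and 889, 1365 and 465 CPM in M + G.

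Markers of the epithelium of the rete testis and epididymis stood out in M + G 2. EPCAM, an adhesion molecule of epithelia, was at 1.61, 0.876 and 0.719 CPM in Sow and 2.70, 21.6 and 4.56 in M + G. EPCAM rose without overlap between the diets, with a log2 fold change of 3.17 ± 0.74 (adjusted p = 0.022, and 3.02 without Sow 2). Without M + G 2 the log2 fold change of EPCAM was 1.72 (adjusted p = 0.0571). M + G 1 and M + G 3 were still above each Sow library and above Milk, at 0.591, 0.372 and 0.249 CPM. The log2 difference from Milk was 4.56 (95% interval 2.75 to 6.37, adjusted p = 0.668 with edgeR and 0.000663 with DESeq2). CDH1, epithelial cadherin, was at 2.02, 2.04 and 1.92 CPM in Sow and 2.31, 10.1 and 4.12 in M + G. CLDN7, a claudin of epithelial tight junctions, was at 1.61, 1.46 and 0.958 CPM in Sow and 1.41, 8.16 and 3.00 in M + G. Both rose, with an overlap between the diets for CLDN7, with log2 fold changes of 1.48 ± 0.45 (adjusted p = 0.0344, and 1.46 without Sow 2) for CDH1 and 1.65 ± 0.53 (adjusted p = 0.0396, and 1.68 without Sow 2) for CLDN7. PRSS8, the epithelial protease prostasin, had 1, 0 and 3 reads in Sow and 6, 34 and 13 in M + G (11.4-fold, 4.19 to 43.3, adjusted p = 0.0208, and 0.123 without Sow 2). In all 3 genes, M + G 2 was again the highest library. KRT7, a keratin of ducts, was at 1.75, 0.438 and 0.839 CPM in Sow and 1.41, 6.80 and 4.34 in M + G. KRT7 rose with an overlap of the diets, with a log2 fold change of 2.04 ± 0.69 (adjusted p = 0.048, and 1.67 without Sow 2). Of the 9 markers tested these 5 rose and 0 fell. The median of 2.04 was 1.68 for the same genes without Sow 2, or 1.95 over the 10 genes tested then. Without M + G 2 the median was 0.69, with 1 called. The summed level of the list, untested members included, was mostly that of the keratin KRT8. It was 204, 214 and 178 CPM in Sow and 151, 405 and 114 CPM in M + G, with M + G 1 and M + G 3 below Sow. The beta-defensin gene DEFB115 did not pass the filter on low counts, with 1, 0 and 0 reads in Sow and 3, 30 and 7 in M + G, and it was at 0 in every library of Milk, Soy and M + E2. Its ratio of M + G to Sow was 34.4-fold (5.82 to 1391). KRT19 was not analysed here.

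**Figure D5:**
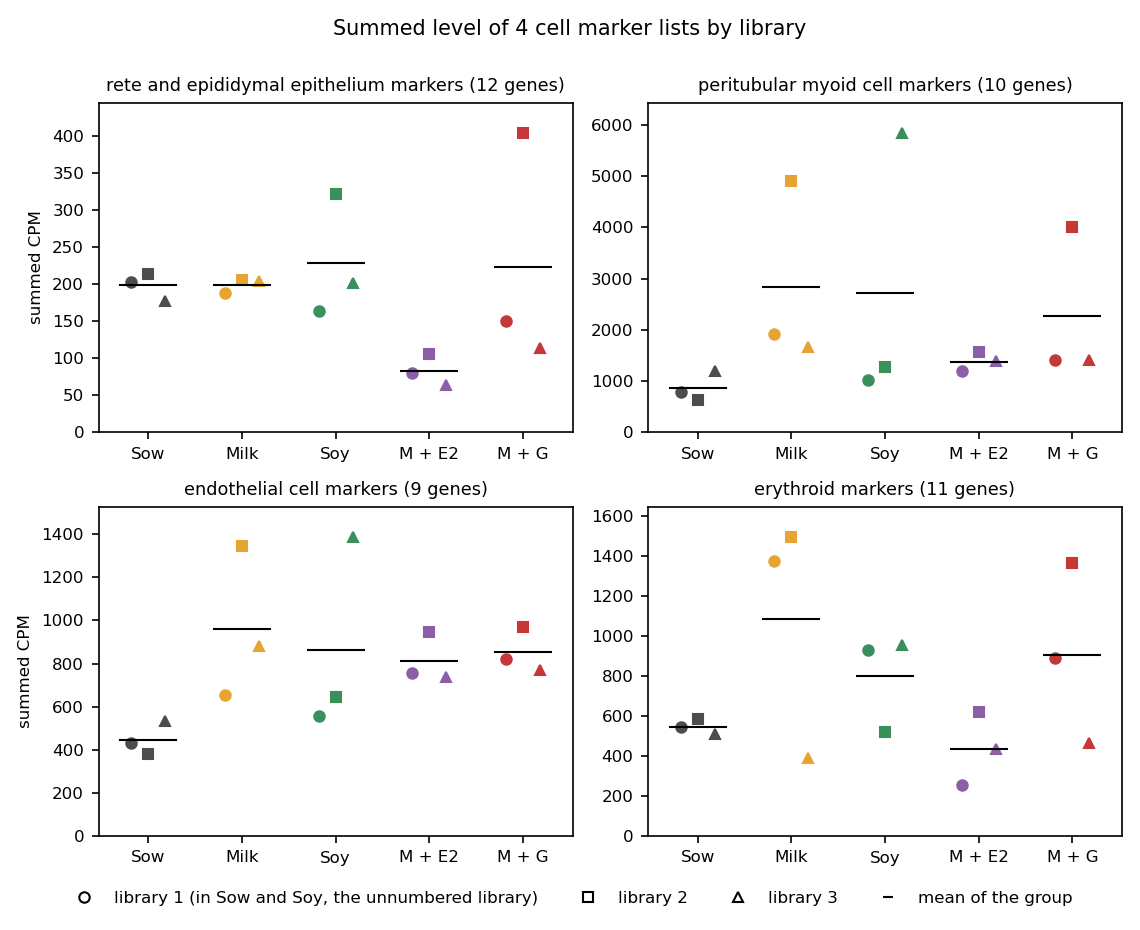
Summed CPM of the markers of 4 cell types, 1 point per library in each diet group, with the group mean as a line. M + G 2 is the highest M + G library in all 4 panels, most clearly for epithelium and myoid cells, while the M + G and Sow libraries do not overlap for myoid and endothelial markers.

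Markers of immune cells were called about as often as all genes (9.09% of macrophage markers and 9.09% of T and NK cell markers, against 10.3%). The median of 11 macrophage markers was 0.04, and −0.12 without Sow 2. Of these markers 1 fell, AIF1, an actin-bundling protein, at 22.2, 40.9 and 29.1 CPM in Sow and 10.8, 16.2 and 10.01 in M + G. AIF1 fell without overlap between the diets, with a log2 fold change of −1.31 ± 0.41 (adjusted p = 0.0377, and −1.09 without Sow 2). CD68, a lysosomal marker of macrophages, was at 16.8, 20.3 and 17.1 CPM in Sow and 16.7, 23.7 and 21.4 in M + G, and the scavenger receptor CD163 at 24.5, 17.7 and 23.5 CPM in Sow and 31.1, 32.1 and 22.5 in M + G. Neither passed the test, with log2 fold changes of 0.19 ± 0.20 (adjusted p = 0.48) for CD68 and 0.38 ± 0.24 (adjusted p = 0.237) for CD163. The median of 11 markers of T and NK cells was −0.17, but 0.05 with total reads. Without Sow 2 it was −0.20 for the same genes and −0.26 over the 12 genes tested then. Of the 11 markers 1 fell, the granzyme gene GZMH, at 2.56, 5.26 and 2.64 CPM in Sow and 0.899, 0.837 and 0.111 in M + G. GZMH fell without overlap between the diets, with a log2 fold change of −2.48 ± 0.66 (adjusted p = 0.0261, and −2.10 without Sow 2). Granzymes are a family of similar genes, between which short reads can be split. CD3E, of the T cell receptor complex, was at 3.36, 5.26 and 2.88 CPM in Sow and 3.98, 5.33 and 3.78 in M + G. CD3E did not pass the test, with a log2 fold change of 0.20 ± 0.42 (adjusted p = 0.747). The summed level of macrophage markers was 392, 471 and 482 CPM in Sow and 400.3, 505 and 367 CPM in M + G, and that of T and NK cell markers was 40.4, 45.9 and 42.6 and 32, 45.4 and 38.7 CPM.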

How the data were processed

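The counts used were the number of reads per gene and library that the authors deposited, whole numbers without normalization. The authors trimmed single-end reads and mapped them with the CLC Genomics Workbench 20.01, first to a curated pig gene library and then, where a read had not mapped, to build 11.1 of the genome in Ensembl. The table lists Ensembl genes, and whether its counts include the reads of the first step is not given in the sources used here. Of 30476 genes, 16446 carried a symbol and 798 more were named by identifier. No column was left unused. Positions were matched by symbol to RefSeq (Sscrofa11.1) for 12234 of 15328 genes (79.8%). No sequence table was used here, so the planned descriptions of protein length and promoters were not run. The first was planned as a sign of transcript length or RNA quality moving with the diets, which was therefore not examined.

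Groups came from the labels. Counts were fitted in R 4.3.3 with edgeR 4.0.16 (filterByExpr at a minimum count of 10, TMM, quasi-likelihood F test) over all 15 libraries, or 14 without Sow 2. A gene was called when its p, adjusted after Benjamini and Hochberg, was at most 0.05 and it differed by at least 2-fold. Adjusted p-values come from this edgeR test, other tools being named. The test was tried on simulated counts. Counting intervals are exact 95% Poisson ratio intervals and, like the limit of 3 reads behind a count of 0, cover counting error only. Alternatives used DESeq2 1.42.0, other scalings and filters, edgeR's exact test, a replicate block and each library left out. Same-numbered Milk and M + G libraries deviated together (r = 0.233, 0.510 and 0.425), and 0 genes were called between them with this block. The labels do not say that numbers pair libraries across diets, so the block serves only as an alternative.

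Named genes were those called without Sow 2, the 8 largest rises and falls by the fold change without Sow 2 among called genes whose libraries did not overlap and whose unadjusted p stayed under 0.05, up to 4 called members of each list with its defining genes, and genes the study names. Some genes that this rule names are not reported here. Members and lists were chosen with earlier results of these data known.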

Additional observations from a re-analysis of the deposited data

Results flagged for a closer look

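ENSSSCG00000018071 and ENSSSCG00000032946 drew attention because their change from Sow differed between M + G and Soy by a test of the difference itself. The log2 difference of M + G from Soy was −2.68 for ENSSSCG00000018071 and 1.48 for ENSSSCG00000032946, each with adjusted p = 0.0295 (edgeR's quasi-likelihood test). ENSSSCG00000018071 was at 17, 9.65 and 9.23 CPM in Soy, against 2.57, 1.67 and 1.34 CPM in M + G, so 3 of 3 M + G libraries were below every Soy library. Soy lay in the range of Sow or somewhat below, and Milk (4.14, 3.47 and 1.74 CPM) and M + E2 (1.45, 1.41 and 1.92 CPM) lay near M + G. ENSSSCG00000032946 was at 19.3, 17 and 15 CPM in Soy and 42.5, 46 and 54.3 CPM in M + G, with 3 of 3 M + G libraries higher, and at 35.2, 48 and 25.5 CPM in Milk and 35.1, 42.2 and 38.1 CPM in M + E2. In both genes the Milk and M + E2 libraries lay on the M + G side of every Soy library. The calls against Soy were lost when any M + G or Sow library was left out, and ENSSSCG00000018071 alone kept its call without Soy 3.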

How the results depend on the processing

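The count of 1585 genes between M + G and Sow ranged from 9 to 2039 when 1 library was left out and was 3421 at an adjusted p of 0.05 alone. It stayed within 1.5 times of 1585 with only the 6 libraries compared (1814), with other filters (1419 and 1673), with DESeq2's size factors (1604), with total reads (1633), with DESeq2's Wald test (1777) and with edgeR's exact test (1933). The count without Sow 2 was 9, and 1 to 3 when another library was also left out (without a second Sow library, Sow is 1 library whose spread is assumed to be that of the other groups), 793 with only the libraries compared, 16 without a filter, 2 with at least 10 counts in every library, 330 with DESeq2's Wald test and 956 with the exact test. Against Soy, the 2 calls became 0 without Sow 2, 0 to 1 over all libraries left out in turn and 11 with DESeq2. Against M + E2, 1 gene was called without a filter and 18 by DESeq2, and against Milk 3 by DESeq2. Of 109 named genes, 80 of them called, 71 calls were lost without Sow 2, 68 without M + G 1 and 72 without M + G 3, while at least 105 kept their direction under every alternative tried for them all. These alternatives share most of their libraries, so the kept direction is no separate support.

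With the replicate number as a block, which leaves out the unnumbered libraries, 2048 genes were called between M + G and Sow, 0 without Sow 2 (2520 at an unadjusted p under 0.05) and 0 against Soy. Without Sow 2 this fit has Sow 3 as the only Sow library and takes the spread from the other groups, so its 0 says nothing about stability. In the same libraries with the block left out, a fit chosen after seeing the data, the counts were 1731, 4 and 0. Only 2 numbers are shared between Sow and M + G, and their libraries deviated together at r = 0.0661 and 0.0782, so these numbers were not taken to pair them.

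List medians kept within 1 SD of their members except those of myoid (0.74) and epithelial markers (0.69) without M + G 2, the mitochondrial genome (−0.71) without M + G 1 and the aryl hydrocarbon receptor list (0.22) with total reads. These single-library values were also chosen after seeing the data. With total reads, 71 members of lists were called higher and 63 lower, in place of 53 and 108. At this depth, genes with 0 to 3 reads in Sow have wide counting intervals.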
